A study of Mus musculus with 7 samples.

Results

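Neuropeptides are short signalling molecules cut from larger precursor proteins, and 9 precursor genes were followed in the cortex of mouse embryos at E18.5: Npy, Nts, Sst, Cck, Grp, Adcyap1, Penk, Tac1 and Vip. They are 9 of the 23413 gene symbols in the deposited count tables, chosen by the UMIs of these same libraries, as a set led by Npy, whose level differed between genotypes. For that reason the genotype values of Npy are given as a description, without a test. Vip had a row in 2 of the 7 libraries, and each of the other 8 genes had a row in every library.

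The libraries are single-cell RNA profiles made on the Seq-Well platform, which captures cells with barcoded beads in small wells and counts unique molecular identifiers (UMIs, 1 per captured transcript). Each library is 1 embryo of a single litter. The 4 mutants were Emx1CreERT2;Ash1lfl/fl (replicates 10, 11, 12 and 17) and the 3 controls were Ash1lfl/fl (replicates 14, 15 and 16). Controls carry the floxed Ash1l alleles but no Cre, and the dam of all embryos received tamoxifen at 100 mg/kg on E10.5. As background, Ash1l encodes a histone methyltransferase, and Emx1 drives the tamoxifen-dependent Cre in progenitors of the dorsal telencephalon, which give rise to excitatory neurons and glia. Cortical GABAergic interneurons are born in the ganglionic eminences, mostly outside that Cre domain.

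A peptide precursor enters the secretory pathway, is cut by prohormone convertases and is stored in dense-core vesicles until released. In the mature mouse cortex, Sst, Npy, Vip, Tac1 and Penk are best known from interneurons, with Sst and Npy in cells from the medial ganglionic eminence (MGE) and Vip in cells from the caudal ganglionic eminence (CGE). Cck is made by both neuron classes, and Nts, Grp and Adcyap1 by subsets of excitatory neurons. The released peptides act on G-protein-coupled receptors of neighbouring cells.

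RefSeq promoter windows (GRCm38.p6, 250 bases before to 50 after the start) were found for 7 of the 9 genes. The windows of Npy and Sst are shown because these genes are carried together in MGE-derived cells, as described below. Capitals mark the palindromic cAMP response element TGACGTCA, the motif bound by CREB; it was searched on both strands.
Npy chr6:49822460-49822759, plus strand: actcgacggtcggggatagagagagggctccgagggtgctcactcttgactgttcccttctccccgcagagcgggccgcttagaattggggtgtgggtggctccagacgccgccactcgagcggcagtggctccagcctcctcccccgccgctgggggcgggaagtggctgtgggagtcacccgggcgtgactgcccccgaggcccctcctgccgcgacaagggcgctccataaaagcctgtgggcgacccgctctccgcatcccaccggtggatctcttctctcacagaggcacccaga
Sst chr16:23890795-23891094, minus strand: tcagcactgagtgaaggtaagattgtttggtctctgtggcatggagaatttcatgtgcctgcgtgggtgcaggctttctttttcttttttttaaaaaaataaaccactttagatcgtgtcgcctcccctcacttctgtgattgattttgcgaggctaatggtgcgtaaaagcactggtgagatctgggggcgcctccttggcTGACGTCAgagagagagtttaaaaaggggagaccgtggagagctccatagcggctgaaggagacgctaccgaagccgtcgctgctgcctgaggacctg
The element was found in the Sst window, 48 bases before the start, and in none of the other 6 genes with a window; 1.79% of all 32851 windows hold it. Its 6-base core TGACGT, which the full element contains, was found in Sst, Adcyap1 and Vip and in 7.51% of all windows. A match describes letters and no binding.

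The genes lie on different chromosomes of the mm10 build, apart from 2 shared pairs. By the GENCODE annotation, Npy is at chr6:49822710-49829507 on the plus strand and Tac1 at chr6:7554879-7565834 on the same strand. Nts is at chr10:102481756-102490486 on the minus strand and Vip at chr10:5639218-5647617 on the plus strand. Sst is at chr16:23889573-23890958, Cck at chr9:121489824-121495694 and Penk at chr4:4133531-4138819, all on the minus strand. Adcyap1 is at chr17:93199017-93206537 on the plus strand and Grp at chr18:65872820-65886596, also on the plus strand.

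Of 50191 barcodes, 23005 with at least 500 detected genes and at most 10% mitochondrial UMIs were kept, 5316785 to 9460628 UMIs per embryo. Levels are given as CPM, the UMIs of a gene per 1000000 UMIs of the cells summed per embryo. Cells were sorted by UMIs of marker lists that hold no peptide gene. This gave 8754 excitatory-gated cells (2253 deep-layer and 5310 upper-layer), 1315 GABAergic-gated cells (493 MGE and 371 CGE) and 2281 progenitor-gated cells, while 46.1% stayed ungated. Excitatory-gated cells carried 11.9 to 34.2 CPM of the 8 GABAergic markers, and GABAergic-gated cells 44.9 to 116 of the 7 excitatory markers. Ash1l itself, in all kept cells, was at 162, 217 and 206 CPM in controls 14, 15 and 16 and at 156, 157, 170 and 121 in mutants 10, 11, 12 and 17. The groups overlap (log2 fold change −0.39, SE 0.124, adjusted p = 0.336 in edgeR). In excitatory-gated cells Ash1l was 155, 195 and 197 CPM in the controls and 146, 139, 150 and 117 CPM in the mutants. There the groups do not overlap, as for 10.8% of tested genes, and Ash1l was not called (−0.40, SE 0.119, adjusted p = 0.241 in edgeR). The counted 3′ tags need not lie in the deleted part, so these values do not check the deletion.

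Sst, the precursor of somatostatin, and Npy, that of neuropeptide Y, were the peptides of the MGE-gated cells. Over the 7 embryos, Sst in these cells ranged from 156 to 368 CPM with a median of 285, and 10.8% to 32.4% of cells had a Sst UMI. In CGE-gated cells it was 0 to 14.5 CPM. The MGE-gated level lay above the CGE-gated level in every embryo, a log2 difference of 4.99 (SE 0.355, in edgeR with the embryo as a block). Npy in MGE-gated cells was 90.6 to 293 CPM with a median of 241, against 0 to 43.5 CPM in CGE-gated cells, a log2 difference of 4.84 (SE 0.4). Of all genes tested between these gates, 7.54% were called, and the other 7 peptides had too few UMIs to be tested. Neither gene passed the filter on low counts within CGE-gated cells. A gene that enters a test through the gate where it is high had to differ, so the sizes are given without p-values.

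Tac1, the precursor of substance P, had 24 UMIs in MGE-gated and 1 in CGE-gated cells. It reached 51.7 CPM in the MGE-gated cells of control 16 and 0 in those of control 14. Vip, the mark of a later CGE-derived class, had 2 UMIs in all kept cells, 1 each in control 16 and mutant 17, and both were in CGE-gated cells. No excitatory-gated cell had a Vip UMI, 0 of 8754, which allows a share of cells with a captured UMI of up to 0.0343%; in the 493 MGE-gated cells 0 allows up to 0.609%. These limits are on captured UMIs and not on cells that express Vip. At E18.5 and this depth, Vip was barely detectable.

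**Figure D1:**
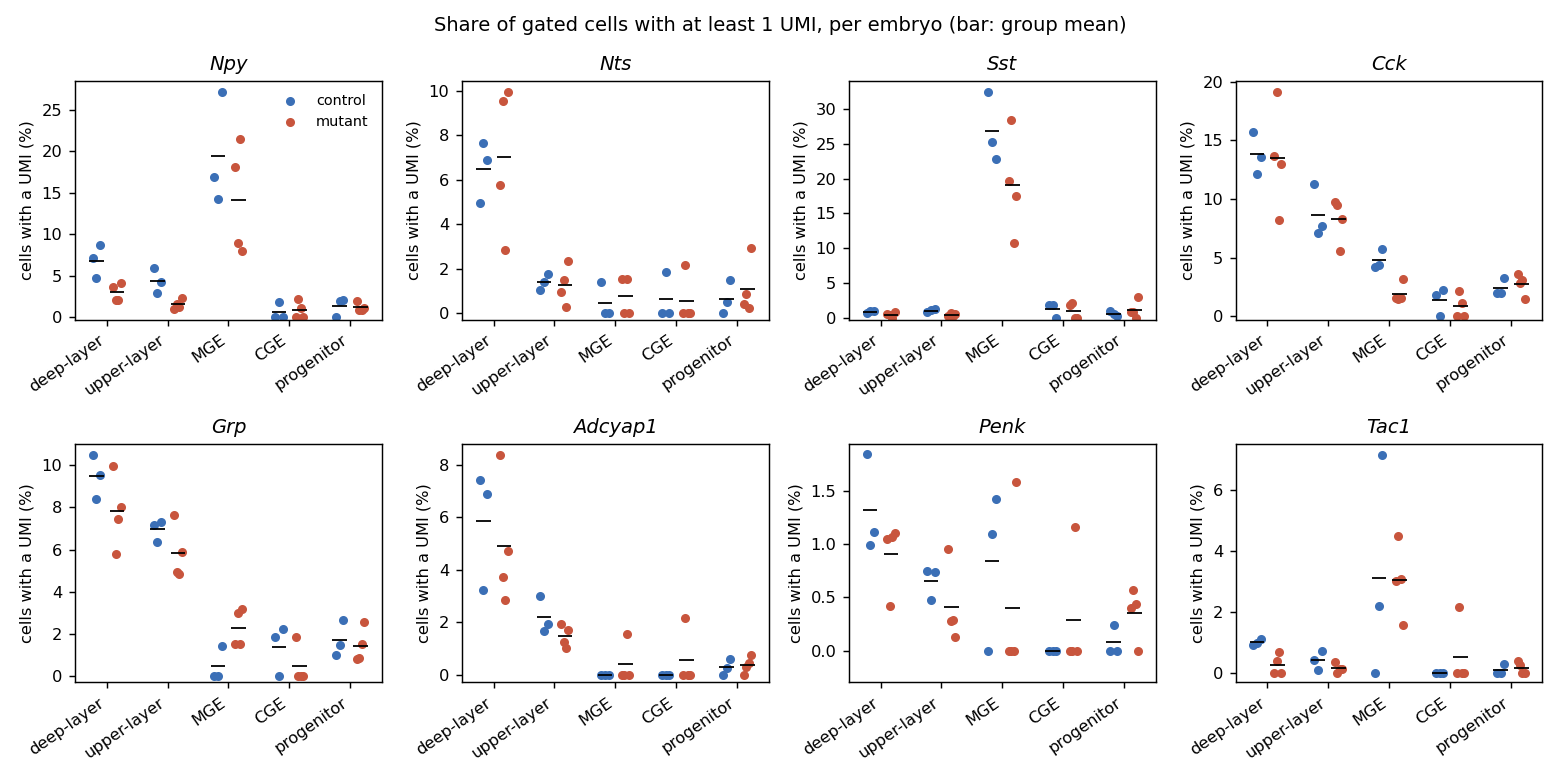
Share of cells with at least 1 UMI of each of 8 peptide genes (vertical axes, percent; scales differ), in 5 marker gates (horizontal axes). Each point is 1 embryo, 3 controls in blue and 4 mutants in red, and black bars are group means; Sst and Npy reach their highest shares in MGE-gated cells (up to 32.4% and 27.1%), Nts and Adcyap1 in deep-layer cells.

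Npy UMIs were not confined to GABAergic-gated cells. By UMIs, 52.1% of all Npy molecules lay in excitatory-gated cells, 14.3% in GABAergic-gated and 30.9% in ungated cells; for Sst these shares were 10.4%, 38.8% and 48.0%. These shares pool the genotypes. Per embryo, the excitatory-gated share of Npy was 40.3% to 63.8% in controls and 33.3% to 48.8% in mutants. Its GABAergic-gated share was 7.87% to 17.2% in controls and 6.25% to 28.6% in mutants. Summed over the embryos, there were 11.6 Npy UMIs per Sst UMI in excitatory-gated cells and 0.844 in MGE-gated cells. The Npy level was 13.7 to 77.6 CPM in excitatory-gated cells (median 24.8) and 53.7 to 157 CPM in GABAergic-gated cells (median 122), and was higher in the latter (log2 difference 1.70, SE 0.163, adjusted p = 2.14e-11). The same comparison gave 5.40 for Sst (SE 0.223, adjusted p = 5.57e-23). Between these gates 31.5% of all tested genes were called.

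The share of excitatory-gated cells with a Npy UMI was 1.47% to 5.99%, against 0% to 2.07% of progenitor-gated cells, taken as a class that should lack the gene. Mutants 10, 11 and 12, at 1.48%, 1.47% and 1.69%, lie inside the progenitor range, and the 3 controls and mutant 17 (3.03%) lie above it. By level, Npy was higher in excitatory- than in progenitor-gated cells of each embryo, but by little in mutant 10 (13.7 against 13.3 CPM). Barcodes left out by the gene and mitochondrial filters also held Npy. Their level was above the excitatory-gated level in mutants 10, 11 and 17 (21.4, 27.7 and 28.5 CPM). It was below that level in mutant 12 (14.8 CPM) and in the controls (32.7 to 45.0 CPM). The part of background in excitatory-gated Npy was not tested. In progenitor-gated cells, 1 cell of control 16 and 1 of mutant 10 had 5 or more Npy UMIs. Median UMIs per cell were 1497 to 2986 in excitatory-gated cells and 1371.5 to 2254 in progenitor-gated cells. Among 305 Npy-positive excitatory-gated cells, 47 had 5 or more Npy UMIs, up to 54 in 1 cell, and none of these 47 had a Sst UMI. Over all 305, 9 cells (2.95%) had a Sst UMI against 0.604% of Npy-negative cells, or 1.70% and 0.310% after thinning every cell to 1000 UMIs, higher in 5 of 7 embryos. Npy-positive cells were deeper than Npy-negative ones, with embryo medians averaging 3015 and 1986 UMIs. They also carried more deep-layer marker UMIs in 7 of 7 embryos, 697 to 1926 CPM against 675 to 935 in Npy-negative excitatory cells. Upper-layer markers were higher in 6 of 7 embryos (1395 to 2170 against 1370 to 1621 CPM), and so were GABAergic markers (11.7 to 112 against 10.3 to 34.1 CPM). The part of GABAergic RNA in these Npy values was not tested. Sst in excitatory-gated cells, at 0.169% to 1.08% of cells, stayed within the 0% to 2.94% of progenitor-gated cells. That upper end came from mutant 17, which held 9 of the 22 Sst UMIs of progenitor-gated cells. Whether Sst in excitatory-gated cells is background was not tested.

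Nts, the precursor of neurotensin, was the peptide with the steepest layer difference. In deep-layer cells it was at 138, 190 and 216 CPM in controls 14, 15 and 16 and at 82.7, 499, 67.3 and 418 CPM in mutants 10, 11, 12 and 17. In upper-layer cells of the same embryos it was 3.46, 12.5 and 8.16 CPM, and 9.78, 55.1, 3.77 and 31.9 CPM. Every deep-layer value exceeded every upper-layer value, with a log2 difference of 3.82 (SE 0.121, adjusted p = 1.76e-29; 28.1% of all genes tested between the layers were called). Nts was carried by few cells with many molecules: 257 excitatory-gated cells had any Nts UMI, and the 5 richest cells of an embryo held 33.0% to 78.1% of its excitatory Nts UMIs. The richest cell, with 89 of the 183 excitatory-gated Nts UMIs of mutant 10, was in neither layer gate. Within the layer gates of mutants the most in 1 cell was 81 (deep-layer) and 50 (upper-layer). Nts-positive cells carried more deep-layer marker UMIs (1405 to 2096 CPM against 617 to 952) and fewer upper-layer marker UMIs (624 to 1126 against 1405 to 1675) than Nts-negative cells in each of the 7 embryos.

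Adcyap1, which encodes PACAP, was 11.8 to 30.2 CPM in deep-layer and 6.05 to 10.4 CPM in upper-layer cells (log2 difference 1.37, SE 0.193, adjusted p = 1.44e-07). Adcyap1 had 3 UMIs in GABAergic-gated cells, and the excitatory-gated level was 10.6 times higher (95% counting interval 3.58 to 51.5). Cck, the precursor of cholecystokinin, was found in 13.4% of deep-layer and 8.29% of upper-layer cells, and its deep-layer level was higher (log2 difference 0.92, SE 0.0918, adjusted p = 2.35e-11). Yet Cck-positive excitatory-gated cells carried more deep-layer marker UMIs than Cck-negative ones in 1 of 7 embryos (603 to 945 against 657 to 1011 CPM). Grp-positive cells did so in 0 of 7 embryos (453 to 731 against 694 to 1033 CPM) and Adcyap1-positive cells in 6 of 7. Upper-layer markers were higher in carriers of these 3 genes in 0 of 7 embryos. Cck was lower in GABAergic- than in excitatory-gated cells, at 9.73 to 32.5 against 53.4 to 105 CPM (log2 difference −1.91, SE 0.198). Grp, which encodes gastrin-releasing peptide, was nearly even between layers, at 36.1 to 60.6 and 26.9 to 48.9 CPM (log2 difference 0.37, SE 0.118, adjusted p = 0.0151), and was likewise lower in GABAergic-gated cells (log2 difference −2.36, SE 0.268). Adcyap1, Cck and Grp did not pass the filter within GABAergic-gated cells, so these differences too have no p-value. Npy in deep- against upper-layer cells gave 0.74 (SE 0.155, adjusted p = 0.000198), but without control 16 it was 0.38 and no longer called; control 16 had 129 CPM in deep-layer cells. The Grp layer call was also lost without mutant 12 or mutant 17, at 0.30 in both cases.

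**Figure D2:**
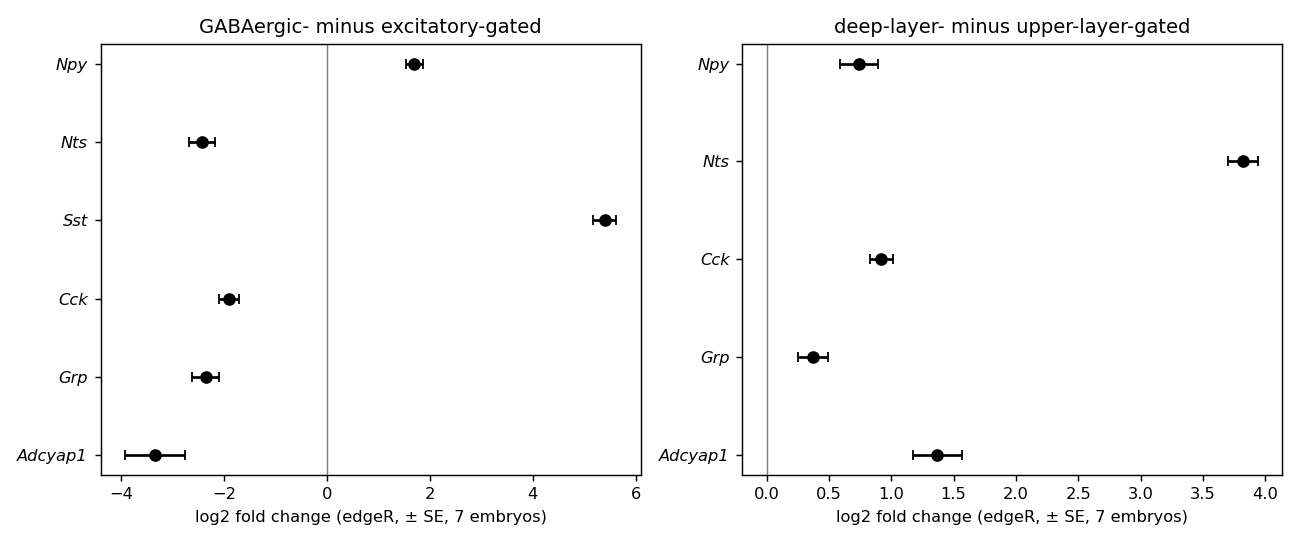
Log2 fold change (horizontal axis) of each tested peptide gene between cell gates of the same 7 embryos, with SE as bars, from edgeR with the embryo as a block. Left, GABAergic-gated minus excitatory-gated, where Sst (5.40) and Npy (1.70) lie above 0 and Adcyap1 rests on 3 UMIs in GABAergic-gated cells; right, deep-layer minus upper-layer, where Nts (3.82) is farthest from 0.

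Penk, the enkephalin precursor, had 179 UMIs in all kept cells, 99 of them in excitatory-gated cells. In the deep-layer gate most lay in cells bearing markers of Cajal-Retzius cells, the earliest-born layer I neurons. Of 53 Penk UMIs in deep-layer-gated cells, 42 fell in the 164 cells with 2 or more UMIs of the Cajal-Retzius list, 47.8 CPM against 1.65 CPM in the other 2089 cells. In upper-layer-gated cells 3 of 40 Penk UMIs lay in the 121 cells marked in this way, 7.42 against 2.74 CPM. The 53 deep-layer Penk UMIs came from few cells. In controls 15 cells held 38 of them, up to 13 in 1 cell, and in mutants 10 cells held 15. Of the 99 Penk UMIs in excitatory-gated cells, 38 were from control 14. The Cajal-Retzius list itself was 752 to 1396 CPM in deep-layer cells of controls and 1348 to 2508 CPM in those of mutants, so this gate holds such cells in both genotypes. Npy was at 67.1 CPM in marked and 52.8 CPM in other deep-layer cells, and at 54.4 and 28.9 CPM in upper-layer cells, the latter from 22 UMIs in marked cells. Nts was lower in marked deep-layer cells, at 95.5 against 236 CPM, and higher in marked upper-layer cells, at 32.1 (13 UMIs) against 15.2 CPM. These are sums over embryos, without a test.

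Pairs of peptides in the same cell were described by the share of carriers, also after thinning to 1000 UMIs because carriers were deeper. In MGE-gated cells, 40 of 81 Npy-positive cells (49.4%) had a Sst UMI against 17.5% of Npy-negative cells. After thinning the embryo means were 38.5% and 11.7%, and the share was higher among Npy-positive cells in 7 of 7 embryos. In excitatory-gated cells, 122 of 619 Grp-positive cells (19.7%) had a Cck UMI against 8.73% of Grp-negative cells, which thinning brought to 6.93% and 4.74%, higher in 5 of 7 embryos. Npy and Nts were together in 10 excitatory-gated cells, 3.28% of Npy-positive against 2.92% of Npy-negative cells, with 1.81% and 2.23% after thinning.

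Npy was lower in the mutants in all kept cells and in excitatory-gated cells, while in MGE-gated cells the groups overlapped. In all kept cells it was 50.5, 40.0 and 65.9 CPM in controls 14, 15 and 16 and 19.2, 19.6, 22.6 and 23.8 CPM in mutants 10, 11, 12 and 17, so the groups do not overlap. The means ± SD were 52.1 ± 13.0 (n = 3) and 21.3 ± 2.26 (n = 4), a log2 fold change of −1.31 (SE 0.164). Of all 12893 genes tested, 4.63% were likewise lower in mutants without overlap and 0.0233% were called in either direction. Since Npy was chosen for this contrast, nothing is read from its place among them. In excitatory-gated cells the 3 controls held 52.5, 34.6 and 77.6 CPM and the 4 mutants 13.7, 15.9, 20.5 and 24.8 CPM, a log2 fold change of −1.56 (SE 0.235). Both layers shared the direction without overlap, at −1.82 (SE 0.302) in deep-layer and −1.20 (SE 0.254) in upper-layer cells. The lower Npy was not particular to excitatory-gated cells. Ungated cells held 369 Npy UMIs in controls and 190 in mutants. Barcodes left out by the filters had 45.0, 32.7 and 43.4 CPM in controls 14, 15 and 16. In mutants 10, 11, 12 and 17 they had 21.4, 27.7, 14.8 and 28.5 CPM.

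The lower Npy in excitatory-gated cells showed in the share of carriers. A Npy UMI was found in 5.06% ± 1.58 of excitatory-gated cells in controls and in 1.92% ± 0.751 in mutants (SD, n = 3 and 4). After thinning to 1000 UMIs the shares were 2.96% ± 0.636 and 1.20% ± 0.440. The molecules per carrier overlapped between the groups, with 3.66, 2.62 and 3.66 Npy UMIs per positive cell in controls 14, 15 and 16 and 3.33, 2.24, 2.30 and 1.95 in mutants 10, 11, 12 and 17. Cells with 5 or more Npy UMIs were 9 of 64, 9 of 47 and 21 of 105 positive cells in the controls. In the mutants they were 3 of 12, 1 of 17, 3 of 20 and 1 of 40, so the share in mutant 10 was above that of every control. In deep-layer cells the sums were 23 of 81 in controls and 3 of 33 in mutants, from 341 and 71 Npy UMIs. In upper-layer cells they were 12 of 111 in controls and 4 of 44 in mutants, and in MGE-gated cells 8 of 44 and 4 of 37.

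**Figure D3:**
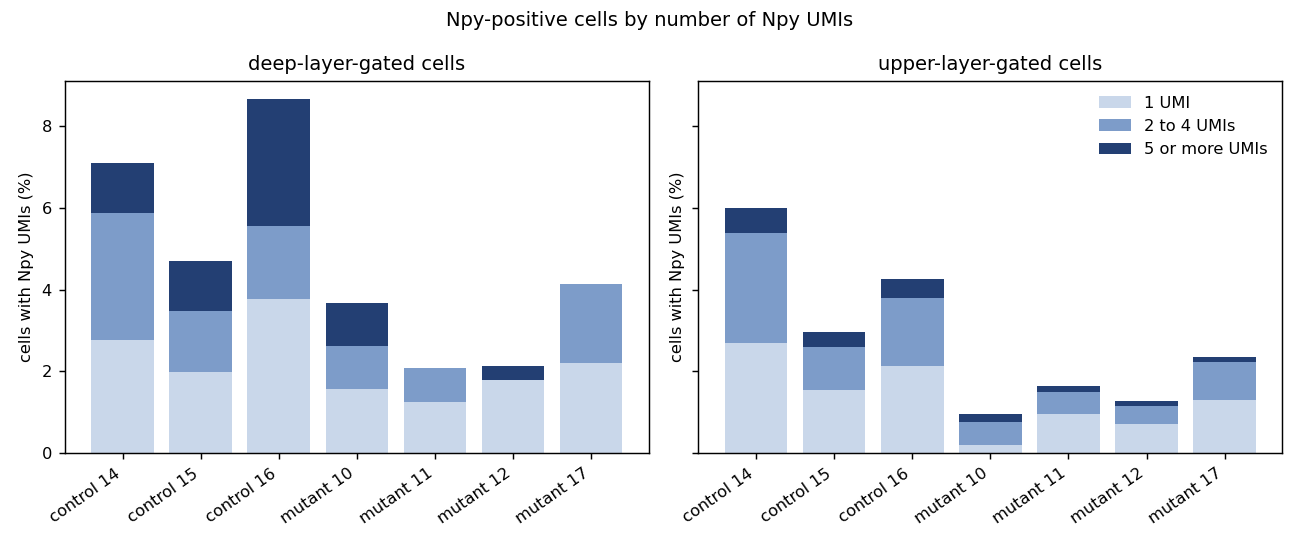
Share of deep-layer-gated (left) and upper-layer-gated (right) cells with Npy UMIs in each embryo (vertical axis, percent), split by the number of Npy UMIs in the cell. The 3 controls have taller bars than the 4 mutants in both layers, and the darkest segments, cells with 5 or more UMIs, are tallest in the controls' deep-layer cells.

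In GABAergic-gated cells Npy was 157, 124 and 152 CPM in the controls and 78.1, 122, 70.4 and 53.7 CPM in mutants 10, 11, 12 and 17, with 124 and 122 CPM as the nearest values of the groups. Its log2 fold change there was −0.84 (SE 0.236). In MGE-gated cells the groups overlapped, at 241, 285 and 284 CPM in controls and 196, 205, 293 and 90.6 CPM in mutants, a log2 fold change of −0.39 (SE 0.26). The difference of the genotype effect, GABAergic- minus excitatory-gated, was 0.68 (SE 0.299), again as a description. Haemoglobin and other erythroid markers, which these neurons do not make, were 295 to 1404 CPM in GABAergic-gated cells of controls and 1084 to 4533 CPM in those of mutants; in excitatory-gated cells the ranges were 500 to 2594 and 902 to 2054 CPM. Their part in the Npy values was not tested. MGE markers made up 857 to 1056 CPM of GABAergic-gated cells in controls and 416 to 1089 CPM in mutants, so the make-up of this gate also varied, and its part was not tested.

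**Figure D4:**
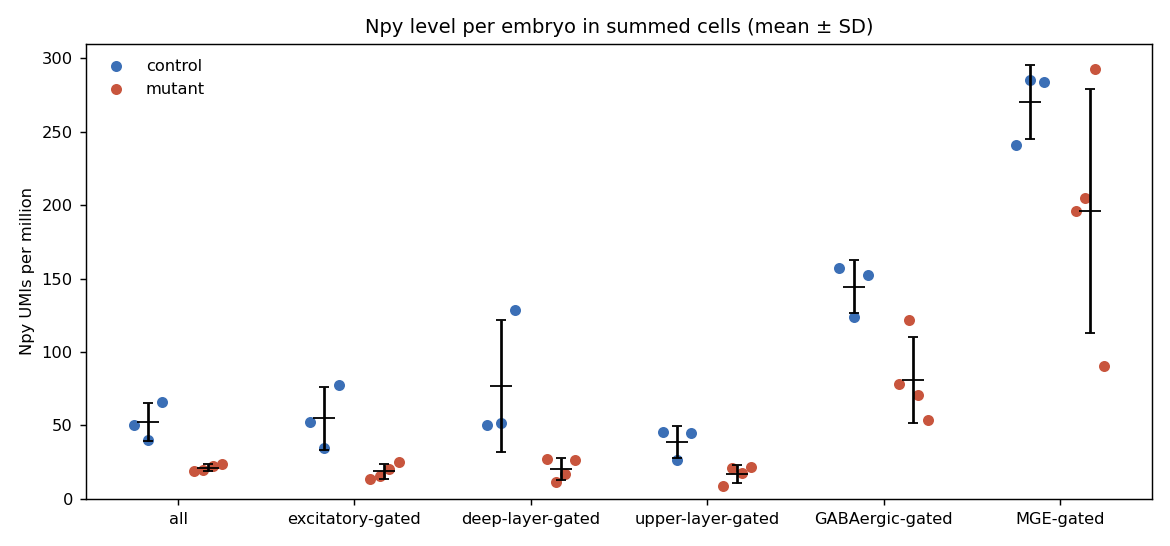
Npy level in CPM (vertical axis) in all kept cells and in 5 marker gates, 1 point per embryo, controls in blue and mutants in red, with mean and SD in black. The mutant points lie below the control points in every group shown except MGE-gated cells, where mutant 12 (293) is above all 3 controls.

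Of the other peptides, those that passed the filter on low counts were tested between genotypes: 7 in all kept cells, 5 in excitatory-gated, 4 in deep-layer and 4 in upper-layer cells, and 1 (Sst) in GABAergic- and MGE-gated cells. None was called by edgeR or DESeq2 with the filter, and Vip was tested nowhere. In all kept cells 3 of the 7 had an unadjusted p under 0.05, as had 1350 of all 12893 genes, and 1 (Sst) did not overlap between groups, where 9.7% of all genes did not overlap. Sst was 16.8, 22.4 and 17.7 CPM in controls and 9.76, 16.4, 10.8 and 16.2 CPM in mutants, log2 fold change −0.53 (SE 0.203, adjusted p = 0.419). Its values were −0.74 in GABAergic-gated (SE 0.288, adjusted p = 0.706) and −0.55 in MGE-gated cells (SE 0.238, adjusted p = 0.751). In excitatory-gated cells, from 81 UMIs, Sst was 2.69, 5.63 and 5.86 CPM in controls and 0.685, 2.51, 0.889 and 3.18 CPM in mutants 10, 11, 12 and 17, a log2 fold change of −1.32 (SE 0.47, adjusted p = 0.29) with overlapping groups. No gene at all was called among 3847 in MGE-gated cells, with 243 at an unadjusted p under 0.05 and 0 called by DESeq2. Tac1 was 2.07, 3.15 and 5.60 CPM in controls and 1.20, 2.26, 2.29 and 1.19 CPM in mutants (log2 fold change −1.11, SE 0.388, adjusted p = 0.383), and Penk gave −0.73 (SE 0.322, adjusted p = 0.454).

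Nts had higher means in mutants, carried by 2 embryos. In all kept cells it was 36.9, 54.3 and 53.8 CPM in controls and 48.8, 96.9, 21.4 and 124 CPM in mutants 10, 11, 12 and 17, so mutants hold both the lowest and the highest value. The log2 fold change was 0.58 (SE 0.384, adjusted p = 0.6), and 1.68 in upper-layer cells (SE 0.532, adjusted p = 0.217). The upper-layer value was 1.00 without mutant 11. Of 159 Nts UMIs in upper-layer cells of mutants, 137 lay in the 5 richest cells of each embryo, 50 of them in 1 cell of mutant 11. With no filter on low counts the Nts difference was called in all kept, excitatory-gated, deep-layer and upper-layer cells, at nearly the same size. Cck (0.12, SE 0.218), Grp (−0.09, SE 0.157) and Adcyap1 (−0.20, SE 0.217) had log2 fold changes near 0 in all kept cells, with adjusted p of 0.882, 0.868 and 0.772. For Cck and Grp the direction reversed without mutant 11. Among excitatory-gated cells 1 of 7 other peptides with UMIs did not overlap (Tac1, 0.318 to 1.33 CPM in mutants and 1.57 to 4.04 in controls, from 42 UMIs in all), where 10.8% of tested genes did not. In deep-layer, upper-layer, GABAergic- and MGE-gated cells none of them was without overlap, against 7.45%, 10.4%, 6.97% and 6.89% of tested genes.

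The shares of genes called by genotype were 0.0534% in excitatory-gated, 0.0869% in GABAergic-gated, 0.0419% in deep-layer, 0.0591% in upper-layer, 0% in MGE-gated and 0.0326% in CGE-gated cells, where no peptide reached the filter on low counts. For the difference of genotype effects between GABAergic- and excitatory-gated cells, 0.0617% of genes and none of the 5 other peptides tested were called. That difference was 0.71 for Sst (SE 0.484) and 0.74 for Grp (SE 0.685, with 20 UMIs in GABAergic-gated cells), close in size to the 0.68 of Npy. For Cck (−0.84, SE 0.46) and Nts (−0.5, SE 0.635) it had the other sign. For Adcyap1 it was 5.2 (SE 2.83), with 3 UMIs in GABAergic-gated cells.

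**Figure D5:**
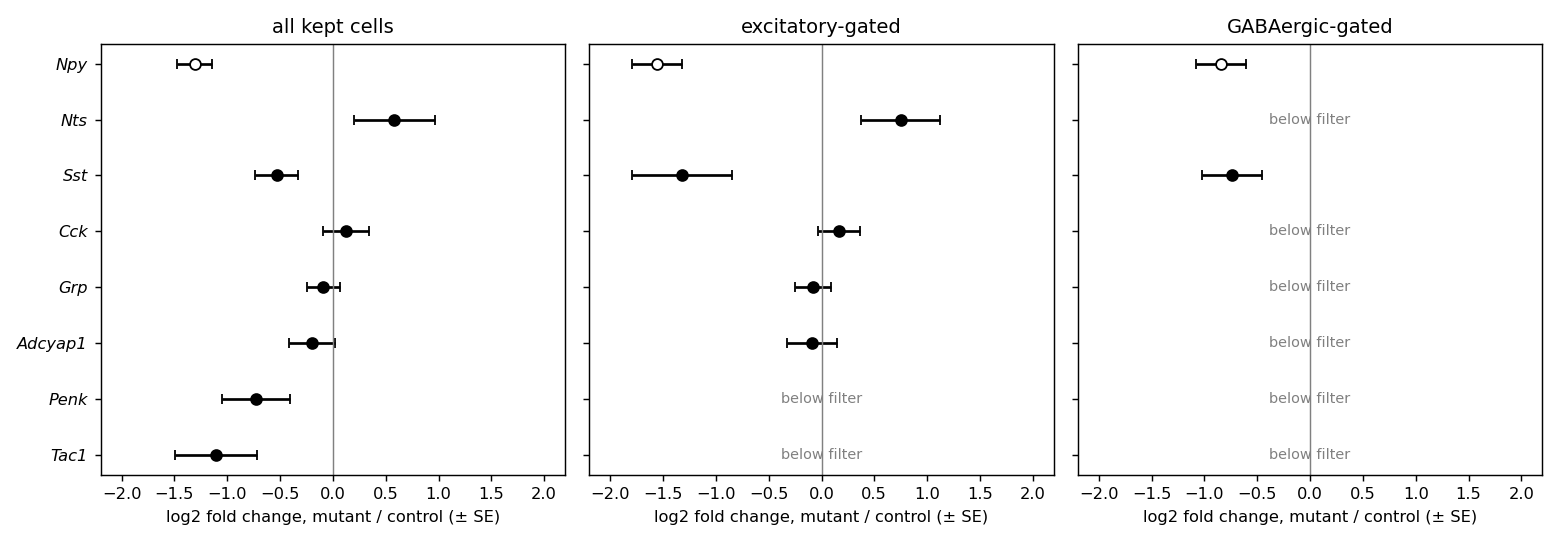
Log2 fold change, mutant over control (horizontal axis, SE as bars), of 8 peptide genes in all kept cells, excitatory-gated and GABAergic-gated cells, from edgeR with 4 mutants and 3 controls. The open circle is Npy, given without a test (−1.31, −1.56 and −0.84); none of the filled circles passed the test.

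Genes that process, store and sense peptides were taken from fixed lists. Of 15 genes for peptide processing and dense-core vesicles, 0 were called by genotype in all kept cells (median log2 fold change −0.23, with 0.003 over all genes). The same held for 21 listed receptors, of which 9 were tested (median −0.11), and for 10 activity-regulated genes (median −0.25). Within the gates 1 gene of these lists was called, Junb, an immediate early transcription factor, which was lower in upper-layer cells of mutants (log2 fold change −0.84, SE 0.157, adjusted p = 0.0469). Its level was 109, 92.5 and 83.9 CPM in controls 14, 15 and 16 and 46.0, 45.0, 57.3 and 64.4 CPM in mutants 10, 11, 12 and 17, without overlap. The call held in 10 of 17 alternatives, with an adjusted p from 1.46e-05 to 0.233. It was lost without control 14 or 15 or without mutant 10, 11 or 12 (adjusted p = 0.0839, 0.165, 0.233, 0.16 and 0.173 in edgeR). Stricter cell filters also lost it, with at least 800 genes (adjusted p = 0.0589) or at most 5% mitochondrial UMIs (adjusted p = 0.128).

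Between layers, 7 of 13 tested processing genes were higher and 3 lower in deep-layer cells, where 28.1% of all genes were called. The convertase gene Pcsk2 was 40.1 ± 8.87 CPM in deep-layer and 11.7 ± 3.52 CPM in upper-layer cells (SD, n = 7; log2 difference 1.71, SE 0.156, adjusted p = 1.43e-12). Cadps, which primes dense-core vesicles for release, was 194 ± 20.4 and 72.1 ± 6.42 CPM (log2 difference 1.41, SE 0.0688, adjusted p = 3.88e-22), and Cpe, which trims cut peptides, was higher by 0.57 (SE 0.0474). Pam, which amidates peptides, was lower by 0.72 on the log2 scale (−0.72, SE 0.0882). Between neuron classes, 4 of 5 tested receptors were lower in GABAergic- than in excitatory-gated cells, where 31.5% of all genes were called in either direction. These were Npy1r (log2 difference −2.07, SE 0.435), Sstr2 (−1.08, SE 0.239), Ntsr1 (−2.69, SE 0.338) and the sorting receptor Sort1 (−0.43, SE 0.12). Npy1r, Sstr2 and Ntsr1 are receptors for neuropeptide Y, somatostatin and neurotensin. Among processing genes 2 of 14 were higher in GABAergic-gated cells, led by Cadps2 (2.36, SE 0.285), and 4 were lower, led by the vesicle protein gene Syt4 (−1.98, SE 0.0927); as a share this is near the 31.5% of all genes, and nothing is read from it. Between MGE- and CGE-gated cells 3 of 4 tested activity-regulated genes were higher in the MGE gate, Nr4a1 (1.83, SE 0.272), Fosb (0.83, SE 0.21) and Fos (0.64, SE 0.144), where 7.54% of all genes were called. Low genes can enter these comparisons through the gate where they are high, which holds for the list counts too.

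The genes whose levels ran most like Npy across 18 sums (6 gates in 3 controls) were Gpr26 (Spearman correlation 0.938), Grasp (0.924), Syndig1 (0.898), Edaradd (0.888) and Mmd (0.883), among 9720 genes. Among those most like Sst were Ddx19b (0.927), Bcl9 (0.907), Satb1 (0.899) and Kcnmb2 (0.898), of which Satb1 is a marker used for the MGE gate. Sst ranked 256 in likeness to Npy, at 0.599. Sums of 1 embryo share a library, and the sums differ in depth, so these are descriptions.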

How the data were processed

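Single cells of 7 embryonic cortices, 1 library each, were analysed with the embryo as the replicate (4 mutants, 3 controls), as the labels give them. The authors deposited whole-number counts of UMIs per gene symbol and barcode, not normalised. STAR and the mm10 build are named in the submitters' processing notes; the UMI collapsing, the annotation and the handling of overlapping genes were not stated in any source read for this work. The tables hold 62753750 UMIs, 7083225 to 11859209 per library. The genes and lists were chosen with earlier results of these data known.

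Barcodes with at least 500 genes and at most 10% mitochondrial UMIs were kept. A cell entered a gate with 2 or more UMIs of its marker list and at least 3 times the UMIs of each other list. No doublet caller was run; 697 cells had 2 or more UMIs of both the excitatory and the GABAergic list, and 582 of them stayed ungated. Exactly 2 marker UMIs put 2060 excitatory and 269 GABAergic cells in their gate. Kept barcodes shared between pairs of libraries numbered 78, and no pair agreed within sampling noise (chi-square per gene 5.85 to 37.4).

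UMIs were summed per embryo and gate and tested with edgeR 4.0.16 (quasi-likelihood, TMM, filterByExpr; R 4.3.3), two-sided, with Benjamini-Hochberg adjustment over all genes tested and a threshold of 0.05. Gates were compared with the embryo as a fixed term. At least 20 cells per embryo were required, so striatal-gated cells could not be fitted. The script was tested on simulated data. Shares of positive cells are descriptions, with n the embryos; thinning used the expected share at 1000 UMIs and left out shallower cells. Intervals are exact and cover counting error at 95%, and a count of 0 was bounded by 3 counts. Alternatives were DESeq2 1.42.0, other scaling, filters and gates, and leaving out embryos. All 9 peptides are named in each comparison, up to 8 called genes of each list by smallest p, and the 5 genes most like Npy and Sst, of which 1 is not reported here. Sort1 falls outside this rule and was named after its values were seen. Whether embryos were processed together is not in the labels, so p-values measure the spread between these libraries.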

Additional observations from a re-analysis of the deposited data

Results flagged for a closer look

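Adcyap1 in excitatory-gated cells of mutant 11 was 8.79 CPM, while mutants 10, 12 and 17 had 14.4, 14.2 and 13.7 CPM. The gap to the nearest mutant was 0.874 of the range of the 4, above Dixon's 95% critical value for that number. In all, 38 groups of 4 mutants were checked in this way, and chance alone marks about 1 in 20.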

How the results depend on the processing

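The log2 fold changes of the peptides, 47 in number, were recomputed under 723 combinations with alternatives. Of these, 680 were unchanged, 13 lost a call, 4 gained one and 26 reversed. Unchanged means the same direction and the same side of the threshold. For the Npy genotype values, which had no test, it means the same direction and a shift below the pooled SD of log2 CPM between embryos. The 680 include gate differences that had to differ and genotype values with no call to lose, so nothing is read from their number. The Npy genotype values kept their sign throughout, from −1.47 to −1.11 in all kept cells, −1.79 to −1.24 in excitatory-gated and −1.16 to −0.72 in GABAergic-gated cells. Leaving out control 16 and mutant 17, cells with Cajal-Retzius markers and the thinning of paired carriers were added after seeing the data.

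The values that reversed were −0.22 to 0.17 as first fitted, apart from the genotype effect between gates, which was 0.71 for Sst, 0.74 for Grp and −0.50 for Nts. Leaving out 1 embryo gave these ranges of log2 fold change. Cck went from −0.06 to 0.34 in all kept cells, −0.03 to 0.41 in excitatory-gated and −0.09 to 0.47 in deep-layer cells, negative without mutant 11 and, in deep-layer cells, without control 16 or mutant 17. Grp went from −0.23 to 0.02, −0.20 to 0.04 and −0.34 to 0.01 in all kept, excitatory-gated and upper-layer cells, positive without mutant 11 or, in excitatory-gated cells, control 15, and from −0.05 (without control 14) to 0.20 in deep-layer cells. Adcyap1 went from −0.26 to 0.05 in excitatory-gated cells, positive without mutant 11 or control 14 or 16, and from −0.28 to 0.26 in deep-layer cells, positive without mutant 11 or control 16. The Nts genotype effect between gates went from −1.24 to 0.05, positive without control 15 or mutant 17. Without control 16 and mutant 17 together, Cck gave −0.07, −0.04 and −0.25 in all kept, excitatory-gated and deep-layer cells, Adcyap1 0.27 in deep-layer cells and the Nts effect between gates 0.11. Grp gave 0.02 in upper-layer cells when the gate needed 3 UMIs, and Adcyap1 0.02 there at a mitochondrial share of at most 5%. With other lists at 0 UMIs the effect between gates was −0.03 for Sst and −0.01 for Grp. The causes were not tested.

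Counts of genes called by genotype moved with the settings. In all kept cells, 3 became 21 with DESeq2, 165 with no filter, 5 at a mitochondrial share of at most 5%, 35 without control 16 and mutant 17, and 3 to 26 leaving out 1 embryo. In excitatory-gated cells, 6 became 33, 162 and 45 with DESeq2, no filter and without control 16 and mutant 17, and 3 to 38 leaving out 1 embryo. In GABAergic-gated cells, 6 became 0 with DESeq2, 19 with no filter, 1 at the lower mitochondrial share, 1 with other lists at 0 UMIs and 3 to 8 leaving out 1 embryo. Deep-layer cells went from 4 to 52 with no filter, 7 with at least 800 genes, 0 without control 16 and mutant 17, and 1 to 19 leaving out 1 embryo. Upper-layer cells went from 6 to 30 with DESeq2, 133 with no filter, 12 when the gate needed 3 UMIs, 17 with other lists at 0, 62 without control 16 and mutant 17, and 2 to 54 leaving out 1 embryo. MGE-gated cells went from 0 to 13 with no filter, 5 at the lower mitochondrial share, 4 without control 16 and mutant 17, and 0 to 4 leaving out 1 embryo. CGE-gated cells went from 1 to 0 with DESeq2, 9 with no filter, 4 without control 16 and mutant 17, and 1 to 2 leaving out 1 embryo. For the genotype effect between gates, 6 became 0 with DESeq2, 16 with no filter, 2 at the lower mitochondrial share, 0 with other lists at 0 UMIs and 3 to 10 leaving out 1 embryo.

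With no filter, 1 peptide (Nts) was called by genotype in all kept, excitatory-gated, deep-layer and upper-layer cells; leaving out 1 embryo gave 0 in each gate. Between MGE- and CGE-gated cells, 205 genes became 102 with DESeq2 and 350 with no filter, and 2 peptides became 1 when a subgate needed 2 UMIs. Those 2 peptides, Sst and Npy, entered through the MGE gate and had to differ, so nothing is read from their count. Between layers, 2752 genes became 1597 with DESeq2, and with no replicate block 1381. The 5 peptides called there became 3 with DESeq2, at the lower mitochondrial share, with no replicate block and without control 16 and mutant 17, and 4 to 5 leaving out 1 embryo. Npy and Grp were the calls lost, at 0.80 and 0.38 with no replicate block. No paired analysis was possible because mutants and controls share no replicate number in the labels; only gates of 1 embryo were paired.

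Depth limits the low peptides: Vip, Tac1 and Penk rest on few UMIs, and thinning to 1000 UMIs brought the share of Cck-positive excitatory-gated cells to 4.93%, of Grp to 3.38% and of Adcyap1 to 1.07%.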
